A study of Mus musculus with 2 samples.

Results

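The genes described here are the nuclear RNA-binding proteins that choose splice sites: the SR proteins (Srsf genes with Tra2a and Tra2b), the heterogeneous nuclear ribonucleoproteins (all symbols that begin with Hnrnp), and the Ptbp, Mbnl, Rbfox, Esrp and Son genes. They were taken by symbol among protein-coding genes, a rule set with earlier results of these data known, and came to 44 of the 21474 protein-coding genes and 43346 genes in the tables. The cells were ES-E14, a mouse embryonic stem cell line of strain 129/Ola from a male embryo, and their total RNA was sequenced in 1 group of 2 libraries, replicate 1 and replicate 2. Both labels point to one source sample, so differences between the libraries may be technical, and the labels name no agent or allele for either. With 1 library on each side no p-value could be given, and every difference below is a description of these libraries.

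SR proteins carry RNA-recognition motifs and a tail rich in arginine and serine, and they mostly promote the use of nearby exons, while many hnRNPs repress them. Several of these regulators control their own messenger RNA: the protein drives the inclusion of a poison exon, which brings a premature stop codon, or the skipping of a coding exon, and the transcript is then removed by nonsense-mediated decay. Ptbp1 keeps neuronal exons silent in stem cells, Mbnl proteins promote the exon choices of differentiated cells, Esrp proteins act in epithelial cells, and Rbfox proteins bind the word TGCATG near exons of muscle and neurons.

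The tables held 43163253 and 45573478 counts on genes after rounding, of which the 44 regulators took 0.469% in replicate 1 and 0.635% in replicate 2. All 8 embryonic stem cell markers were at 1 TPM (the deposited length-corrected share of all transcripts) or more in both libraries, among them Pou5f1 at 162.43 and 201.07 TPM and Sox2 at 31.98 and 39.46 TPM. Of 7 fibroblast markers 5 were detected, and their summed level was 47.52 TPM in replicate 1 and 153.86 TPM in replicate 2. Acta2 made up most of it, and Lum was listed at 0 in both. At least 2-fold higher in replicate 2 were 4 of the 5, where 2.59% of protein-coding genes were. The other, Thy1, was lower there (2.27 and 1.62 TPM). Of 6 neuron markers 1 was detected (Tubb3, 13.28 and 27.12 TPM), and of 5 muscle markers 1 (Ttn, 1.98 and 4.61 TPM). Fewer cells of a type and less RNA per cell cannot be told apart in such bulk libraries, and the part of these markers in the differences between libraries was not tested.

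The poison exons of 3 regulators are shown first, because the decay transcripts that hold them are among the most abundant forms of these genes. Each lay within an intron of the leading coding transcript and was preceded by other exons of the decay transcript. The exons were read from GENCODE M21 transcripts on GRCm38, the mm10 assembly. They lie at chr2:162932815-162933082 on the plus strand (Srsf6, 268 bases), at chr17:29039454-29039909 on the plus strand (Srsf3, 456 bases) and at chr17:80044940-80045022 on the minus strand (Hnrnpll, 83 bases). Only the part up to the stop codon of the annotated reading frame is printed, from the first base of the exon, with the stop codon in capitals. It is 152 bases long in Srsf6, 34 in Srsf3 and 47 in Hnrnpll.
Srsf6 poison exon: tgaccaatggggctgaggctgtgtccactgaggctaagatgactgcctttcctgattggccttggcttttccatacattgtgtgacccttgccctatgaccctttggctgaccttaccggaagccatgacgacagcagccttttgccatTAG
Srsf3 poison exon: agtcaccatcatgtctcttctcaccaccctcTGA
Hnrnpll poison exon: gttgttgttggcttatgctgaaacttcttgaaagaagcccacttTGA

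All but 3 regulators were detected. At 1 TPM or more in both libraries stood 41 of 44, where 46.3% of all protein-coding genes passed the same limit. The median of the 44 was 25.6 TPM as the mean of the libraries (19.41 in replicate 1, 30.535 in replicate 2), against 0.88 TPM over protein-coding genes. Among genes detected in both libraries the medians were 29.5 and 6.36 TPM. The 3 below the limit were Rbfox1, a neuron and muscle regulator, at 0.03 and 0.04 TPM on 8 and 7 counts, Srsf12 at 0.32 and 0.69 TPM, and Mbnl3 at 0.71 and 1.59 TPM. Mbnl3 passed in replicate 2 alone.

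**Figure D1:**
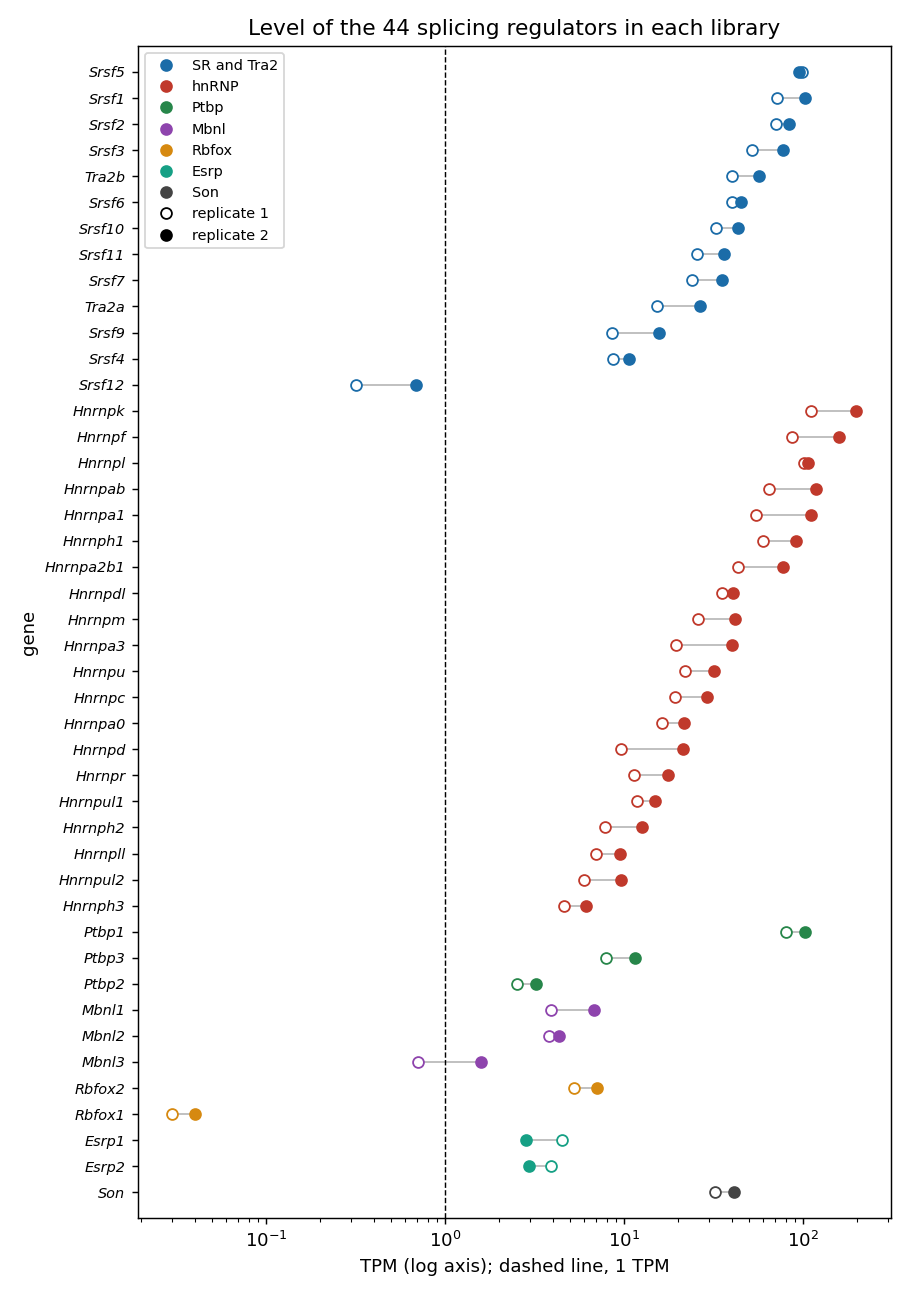
Level of each of the 44 splicing regulators in TPM on a log axis, with replicate 1 as open and replicate 2 as filled circles, coloured by family and joined by a grey line. Values run from 0.03 TPM (Rbfox1) to 198.31 TPM (Hnrnpk), and the dashed line marks the detection limit of 1 TPM.

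Srsf5 (98.46 and 94.68 TPM), Srsf1 (71.68 and 102.02 TPM), Srsf2 (70.33 and 83.28 TPM) and Srsf3 (52.05 and 76.76 TPM) led the SR proteins. Srsf1 lay below Srsf5 in replicate 1 and above it in replicate 2, so their order is not resolved. Both lay above Srsf2 in both libraries, Srsf1 by little in replicate 1. Tra2b, which binds GA-rich exonic enhancers, stood at 40.16 and 56.66 TPM, above its paralog Tra2a at 15.36 and 26.52 TPM. Srsf6 (40.27 and 45.12 TPM), Srsf10 (32.67 and 43.06 TPM), Srsf11 (25.48 and 35.97 TPM) and Srsf7 (23.96 and 35.07 TPM) followed. Each range overlapped the next, but the order was the same in both libraries. Srsf9 (8.52 and 15.69 TPM) and Srsf4 (8.73 and 10.68 TPM) were the lowest detected SR genes.

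All 20 hnRNP genes were detected. The highest was Hnrnpk, a C-rich RNA binder of the KH-domain class, at 111.34 and 198.31 TPM. Hnrnpf, which binds G-tracts, reached 86.6 and 158.73 TPM, and Hnrnpl, which binds CA repeats, 101.00 and 105.94 TPM. Hnrnpk lay above both others in each library, while Hnrnpf lay below Hnrnpl in replicate 1 and above it in replicate 2. Hnrnpab (64.65 and 118.78 TPM), Hnrnpa1 (54.36 and 110.81 TPM), Hnrnph1 (59.41 and 91.75 TPM) and Hnrnpa2b1 (43.07 and 77.56 TPM) formed a middle group whose ranges overlapped. The lowest was Hnrnph3, at 4.65 and 6.15 TPM. Hnrnpll, an Hnrnpl paralog known from lymphocytes, was at 6.99 and 9.48 TPM, so the ranges of the paralogs did not overlap.

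In the Ptbp and Rbfox families 1 paralog stood above the rest. Ptbp1 reached 80.55 and 102.09 TPM, Ptbp3 7.9 and 11.45 TPM, and Ptbp2, the paralog that replaces Ptbp1 in neurons, 2.52 and 3.21 TPM, with no overlap between them. Mbnl1 (3.9 and 6.8 TPM) and Mbnl2 (3.79 and 4.35 TPM) overlapped, with Mbnl1 the higher in both libraries. Rbfox2 stood at 5.26 and 7.04 TPM, while its neuronal relative Rbfox3, one of the neuron markers, was at 0.13 and 0.1 TPM. Esrp1 (4.5 and 2.84 TPM) and Esrp2 (3.9 and 2.96 TPM) overlapped and were both lower in replicate 2. Son, a large nuclear-speckle protein needed to splice weak introns, stood at 32.13 and 40.98 TPM.

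Most regulators were higher in replicate 2, as were most genes. Differences are given as log2(TPM + 1), replicate 2 minus replicate 1, for the 42 regulators of mean 1 TPM or more. The median was 0.49, against 0.23 over protein-coding genes, and 39 of 42 were higher in replicate 2, where 71.7% of protein-coding genes were. The 3 lower ones were Esrp1 (-0.52), Esrp2 (-0.31) and Srsf5 (-0.06). The offset of all genes moved with the scaling: with TMM factors, which equalise the bulk of the genes, the median over protein-coding genes was 0.02. The regulators' median was then 0.29, and 34 of 42 were higher against 51.7% of protein-coding genes. Hnrnpl, Mbnl2, Son, Srsf4 and Srsf6 joined the lower ones on that scale. Relative to the protein-coding median the regulators stood 0.26 higher in TPM and 0.28 higher with TMM factors.

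**Figure D2:**
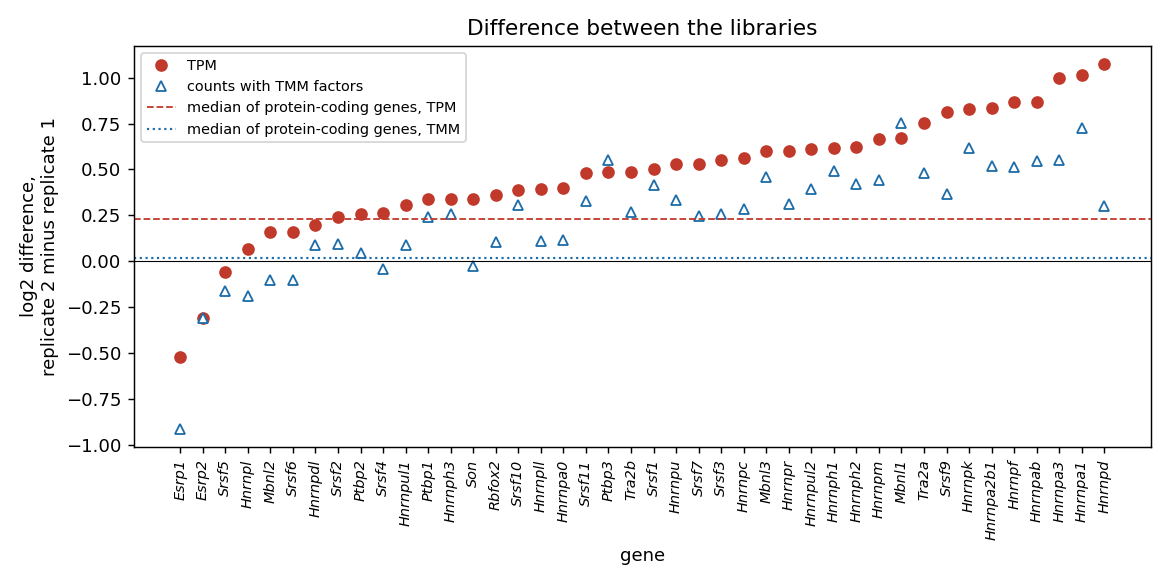
Log2 difference between the libraries (replicate 2 minus replicate 1) for 42 regulators of mean 1 TPM or more, from TPM (filled circles) and from counts with TMM factors (open triangles). The horizontal lines mark the medians of protein-coding genes, 0.23 in TPM and 0.02 with TMM factors, and Esrp1 and Esrp2 lie lowest on both scales.

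Only Hnrnpa1 and Hnrnpd were 2-fold or more higher in replicate 2, 2 of 42 where 2.59% of protein-coding genes passed this limit. Hnrnpa1, a general exon repressor, stood at 54.36 and 110.81 TPM, a log2 difference of 1.01. Hnrnpd, an AU-rich element binder also named AUF1, stood at 9.6 and 21.3 TPM, a log2 difference of 1.07. Its expected counts rose less, from 1246 to 1813. Short transcripts took more of its TPM in replicate 2: Hnrnpd-210 (493 bases) stood at 0 and 4.33 TPM, and Hnrnpd-204 (699 bases) at 1.08 and 4.01 TPM. Hnrnpa3 was just under the limit with 19.45 and 39.89 TPM, and no regulator was 2-fold lower (0.544% of protein-coding genes). With TMM factors the differences were 0.72 for Hnrnpa1 and 0.30 for Hnrnpd, and no regulator was 2-fold apart. The limit of 1.5-fold was passed upward by 16 of 42 in TPM, against 17.9% of protein-coding genes. With TMM factors it was passed upward by 3 of 42 (Hnrnpa1, Hnrnpk and Mbnl1), against 8.24% of protein-coding genes, and downward by Esrp1. The difference moved with base composition: its median over protein-coding genes ran from 0.40 in the decile of lowest GC content to 0.00 in the highest. The leading transcripts of the regulators had a median GC content of 44.9%, against 50.9% for protein-coding genes. After the median of each gene's GC decile was taken off, the median of the regulators was 0.17.

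The second readout was how each gene's output was divided among its transcripts. The deposited transcript tables give the percent of a gene's TPM assigned to each transcript. The nonproductive share is the sum over transcripts that GENCODE M21 does not class as protein-coding, that is nonsense-mediated decay (31 transcripts of these genes), retained intron (74) and other noncoding forms (46), beside 166 coding transcripts. It was computed for the 36 regulators with 2 or more transcripts and 1 TPM or more in both libraries. Hnrnpa0, Hnrnpul2, Ptbp2, Srsf7 and Tra2a have a single transcript in the table, and Mbnl3, Rbfox1 and Srsf12 were too low.

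The median nonproductive share of the regulators was 30.7% (35.0% in replicate 1, 27.4% in replicate 2), against 15.7% over 7424 protein-coding genes under the same filter (17.0% and 13.5%). A share of 25% or more was reached by 19 of 36, where 36.7% of those genes reached it. The regulators also have more annotated forms, with a median of 7 transcripts of which 4 are nonproductive, against 5 and 2. Among genes with any nonproductive transcript in the table the share was reached by 19 of 27, against 45.5%, and the medians were 40.8% and 22.3%. Hnrnpd (24.5%) lay just under the limit and Srsf1 (30.6%) was the first above it. Nonproductive forms are short, with a median length of 980 bases for decay and 827.5 bases for retained-intron transcripts of these genes, against 2250 bases for coding ones. Measured on transcript counts without length correction, the median share was 13.2%, against 6.07% over protein-coding genes.

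**Figure D3:**
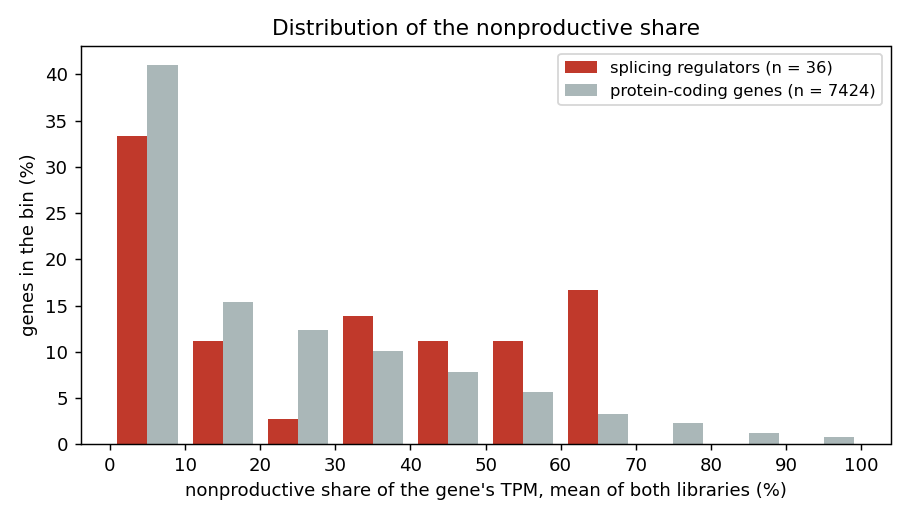
Distribution of the nonproductive share, as the percent of genes in bins of 10 percentage points, for 36 splicing regulators (red) and 7424 protein-coding genes (grey). Between 60% and 70% lie 6 regulators, 16.7% of them, against 3.29% of protein-coding genes, and no regulator lies above 70%.

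Of the families with more than 2 genes measured, the SR and Tra2 genes had the higher nonproductive share. Their median was 49.1%, and 8 of 10 reached 25%. Summed over the family, nonproductive transcripts took 46.9% of the TPM in replicate 1 and 36.7% in replicate 2. In the hnRNP family the median was 11.3%, under the 15.7% of protein-coding genes, and 7 of 18 reached 25%, near the 36.7% of protein-coding genes. The pooled hnRNP shares were 25.3% and 19.2%. The other genes at 25% or more were Ptbp1, Mbnl1, Esrp2 and Son.

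**Figure D4:**
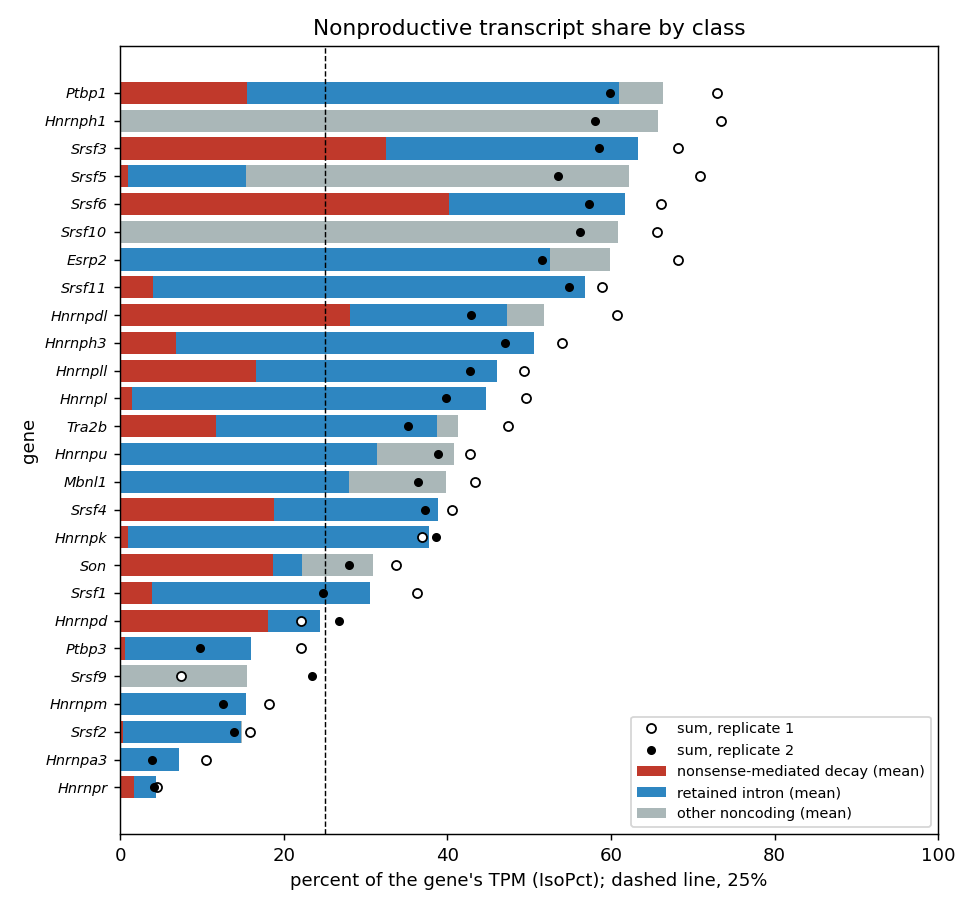
Nonproductive share of the 26 regulators above 0%, split into decay, retained-intron and other noncoding transcripts (stacked bars, mean of both libraries), with the sum in replicate 1 (open circles) and replicate 2 (filled circles). Decay transcripts make up most of the bars of Srsf6, Son and Hnrnpd and about as much as the rest in Srsf3, Srsf4 and Hnrnpdl. The bars of Hnrnph1, Srsf10 and Srsf9 consist of other noncoding transcripts.

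Srsf6 had the largest share in decay transcripts. Its nonproductive share was 66.1% and 57.3%. The decay transcript Srsf6-201, which holds the poison exon printed above, took 40.21% and 40.13% of its TPM, while the coding transcript Srsf6-203 took 33.64% and 42.36%. In TPM the decay form led in replicate 1 and the coding form in replicate 2, while on counts the coding form led in both. Among transcripts that span the site, 54.4% and 48.6% of the output included the exon.

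Srsf3, the smallest SR protein, came next. Srsf3-201, the decay transcript with the 456-base exon, took 29.68% and 35.34%, and the leading coding transcript Srsf3-202 31.82% and 41.46%. The exon was included in 48.3% and 46.0% of the output that spans it, so both libraries gave values close to those of the Srsf6 exon. Retained-intron forms added 38.5% and 23.2%, led by Srsf3-204 at 23.09% and 15.76%. The model of Srsf3-201 is shorter in the deposited files (1919 bases) than in M21, so its printed exon comes from a later model.

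The other SR genes differed in which class of transcript they held. Tra2b was led by Tra2b-204 (29.18% and 32.63%), and its known poison exon of 276 bases was included in 30.3% and 24.9% of the output that spans it. That output, Tra2b-204 and Tra2b-206, was 41.86% and 43.42% of the gene's TPM. The coding Tra2b-201 (23.36% and 32.15%) was not part of it. The largest nonproductive form of Tra2b was Tra2b-203, a retained-intron transcript at 20.42% and 14.04%, ahead of the decay transcript Tra2b-206 at 12.68% and 10.79%. Srsf1, the founding member of the family, was led by Srsf1-202 (34.67% and 35.3%), and its largest nonproductive form was the retained-intron transcript Srsf1-203 (23.65% and 20.5%). Srsf4 was led by Srsf4-202 (59.44% and 62.74%), followed by the retained-intron form Srsf4-201 (22.18% and 18.12%) and the decay form Srsf4-204 (14.58% and 13.25%). In Srsf4 the alternative exon of 184 bases was included in 23.6% and 23.4% of the output that spans it.

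In Srsf5, Srsf10 and Srsf11 little or none of the nonproductive output was in decay transcripts. Srsf5 had a nonproductive share of 70.8% and 53.5%, and its leading form changed from the noncoding Srsf5-206 (27.95% and 19.43%) to the coding Srsf5-201 (12.71% and 28.74%). Srsf10, which represses splicing when dephosphorylated, was led in both libraries by the noncoding Srsf10-207 (26.99% and 26.33%), with the coding Srsf10-204 at 19.35% and 23.11%. Srsf11 was led by Srsf11-202 (25.85% and 29.53%) and held 55.0% and 50.7% in retained-intron forms, the largest of them Srsf11-211 at 16.73% and 13.3%. Srsf9 was led by Srsf9-201 at 92.56% and 76.52%.

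In Srsf2 the libraries differed in the balance of coding transcripts. The coding transcript Srsf2-201 took 52.28% in replicate 1 and 82.24% in replicate 2, while Srsf2-206 took 31.86% and 3.8%. Srsf2-206 is classed as protein-coding, so this difference does not enter the nonproductive share, which was 15.9% and 13.95%. The 104-base exon, held by 2 Srsf2 transcripts, was included in 37.6% of the output that spans it in replicate 1 and 4.41% in replicate 2.

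Within the hnRNP family 3 genes held decay transcripts at a mean of over 15%. Hnrnpdl was led by Hnrnpdl-207 (30.06% and 30.31%), and its decay forms together took 30.2% and 26.1%, the largest being Hnrnpdl-205 at 20.19% and 15.68%. Hnrnpll was led by Hnrnpll-205 (45.61% and 51.68%). The decay transcript Hnrnpll-203, with the poison exon printed above, took 14.58% and 18.68%, and the exon was included in 19.3% and 22.4% of the output that spans it. Hnrnpd was led by Hnrnpd-202 (34.55% and 25.39%), with the decay transcript Hnrnpd-204 at 11.25% and 18.83%. Its stop lies in an exon that is shared with coding transcripts, so no poison exon is shown for it.

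Other hnRNP genes with a share of 25% or more held it mostly in retained introns, except Hnrnph1. Hnrnpk was led by Hnrnpk-201 (21.17% and 29.29%), with 35.9% and 37.5% in retained-intron forms, the largest Hnrnpk-215 at 11.47% and 13.23%. Hnrnpl was led by Hnrnpl-209 (21.04% and 24.98%) and held 47.1% and 39.6% in retained-intron forms, the largest Hnrnpl-205 at 11.81% and 9.48%. Hnrnpu, also known as scaffold attachment factor A, was led by Hnrnpu-201 (57.2% and 61.18%), with the retained-intron form Hnrnpu-202 at 17.69% and 16.61%. Hnrnph3 was led in both libraries by a retained-intron transcript, Hnrnph3-205 (32.65% and 26.68%), ahead of the coding Hnrnph3-203 (25.65% and 23.28%). Hnrnph1 was led by Hnrnph1-201 (17.62% and 30.27%), and all of its nonproductive share of 73.5% and 58.0% was in other noncoding forms, the largest Hnrnph1-207 at 13.86% and 11.72%.

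The other hnRNP genes lay under 25% in both libraries and were led by coding transcripts. Hnrnpm was led by Hnrnpm-201 at 55.27% and 63.65%, Hnrnpr by Hnrnpr-202 at a mean of 32.4%, and Hnrnpa3 by Hnrnpa3-204 at 41.34% and 53.74%. No output lay outside coding transcripts for Hnrnpa1 (Hnrnpa1-202, 89.81% and 88.43%), Hnrnpc (Hnrnpc-201, 95.14% and 96.35%) and Hnrnpul1 (Hnrnpul1-201, 81.54% and 86.82%). The same held for Hnrnpab (Hnrnpab-203, 44.11% and 49.71%), Hnrnpf (Hnrnpf-201, 34.5% and 41.81%), Hnrnph2 (Hnrnph2-203, 29.19% and 40.85%) and Hnrnpa2b1 (Hnrnpa2b1-201, 37.93% and 33.67%).

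Ptbp1 had the highest mean nonproductive share of the 36, with 72.9% and 59.9%, and overlapped Hnrnph1. Retained-intron forms took 52.5% and 38.5%, led by Ptbp1-205 (20.33% and 16.76%). The decay form Ptbp1-201 took 15.56% and 15.34%, and the leading coding form was Ptbp1-206 (15.32% and 25.95%). In TPM Ptbp1-205 led in replicate 1 and Ptbp1-206 in replicate 2, while on counts Ptbp1-206 led in both. The coding output of Ptbp1, Ptbp2 and Ptbp3 together was 30.5 and 54.5 TPM, of 90.97 and 116.75 TPM in all. Ptbp3 was led by Ptbp3-201 (37.65% and 51.56%).

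Esrp2 was led by Esrp2-201 (29.51% and 39.07%) and held 58.9% and 46.2% in retained-intron forms, the largest Esrp2-205 at 16.29% and 15.29%. Those forms are short, and Esrp2-205 rested on 27.89 and 18.83 counts. The whole nonproductive share of Esrp2 was 68.3% and 51.6% of TPM but 21.8% and 12.8% of transcript counts. Esrp1, led by Esrp1-204 (52.73% and 47.51%), had no nonproductive output. Mbnl1 was led by Mbnl1-214 (15.97% and 18.22%), and its largest nonproductive form was Mbnl1-206 (11.54% and 2.94%). Mbnl2 (Mbnl2-201, 77.05% and 74.25%) and Rbfox2 (Rbfox2-203, 32.49% and 47.65%) had no nonproductive output. Son was led by Son-204 (16.62% and 21.6%), and its largest nonproductive form was the decay transcript Son-212 (9.86% and 10.12%). Among the genes under 1 TPM in a library, the leading forms by mean share were Mbnl3-203, Rbfox1-201 and Srsf12-201. In replicate 2 Mbnl3-201 and Rbfox1-202 led instead.

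For 11 regulators the leading transcript differed between the libraries. The same transcript led in both for 25 of 36 regulators, where it did for 86.0% of the 7424 genes. Those that differed were Hnrnpa2b1, Hnrnpa3, Hnrnpf, Hnrnph2, Hnrnpr, Mbnl1, Ptbp1, Rbfox2, Son, Srsf5 and Srsf6. In Ptbp1, Srsf5 and Srsf6 the lead in length-corrected TPM passed from a nonproductive transcript to a coding one. Of these, Srsf5 alone showed the change on counts as well. The coding Srsf6-203 had more counts (3547.65 and 4766.64) than Srsf6-201 (1899.45 and 2019.84) in both libraries. The coding Ptbp1-206 (2889.12 and 5903.88) likewise had more than Ptbp1-205 (2814.57 and 2799.6). A nonproductive transcript led in both libraries for 2 of 36 (Hnrnph3 and Srsf10), against 7.64%. Both leads are in length-corrected TPM. On counts the coding Srsf10-204 (1425.24 and 2136.07) lay above Srsf10-207 (384.16 and 467.98). Likewise the coding Hnrnph3-201 (97.77 and 118) lay above Hnrnph3-205 (58.33 and 59.67). The nonproductive share of Srsf10 was 23.5% and 16.1% on counts.

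Retained-intron transcripts took a smaller share of most genes' output in replicate 2. Of 21 regulators with a mean retained-intron share of 5% or more, 19 had a lower share there, where 75.3% of protein-coding genes under the same limit did. The median difference was -6.63 percentage points, against -3.84 over those genes. The exceptions were Hnrnpk and Srsf5. The retained-intron level itself, in TPM, was lower in replicate 2 for 11 of 21, against 58.2% of those genes, and the level of the whole gene was higher there for most regulators. The share in decay transcripts was lower in replicate 2 for 6 of 10 regulators, against 56.0%, while their level in TPM was lower for 1 of 10, against 44.6%. The whole nonproductive share was lower for 22 of 25, against 71.9%. The lower retained-intron share thus had the same direction in most protein-coding genes.

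**Figure D5:**
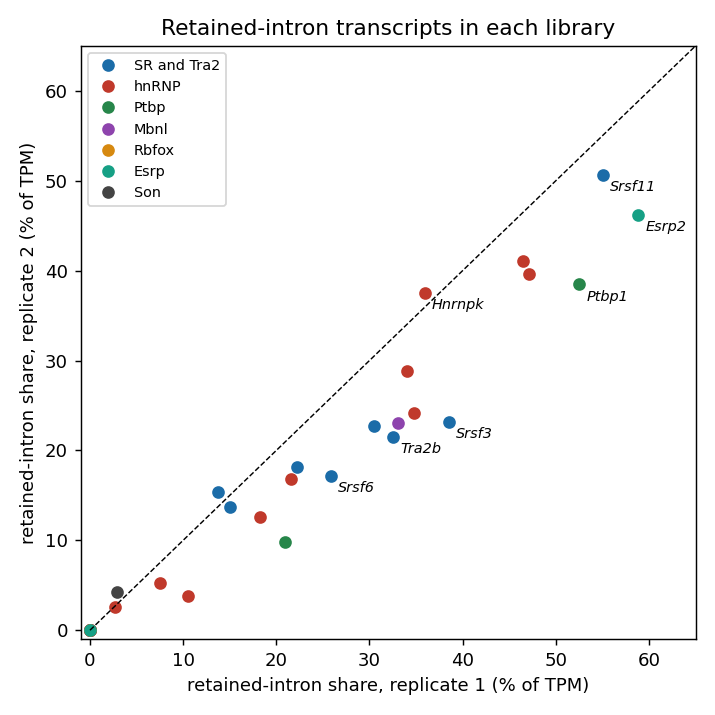
Retained-intron share of each gene's TPM in replicate 1 (x axis) and replicate 2 (y axis) for 36 regulators, coloured by family, with equality dashed. Most points lie below the line, Hnrnpk, Srsf5 and Son lie slightly above it, and Ptbp1 moved from 52.5% to 38.5%.

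Alternative coding exons are shown for 5 genes, because their choice changes the protein or, in Ptbp1, its fate. Sequences are the transcript strand of M21 models on GRCm38, and the percent is the share of the output spanning the site that includes the exon. That output counts nonproductive transcripts as well as coding ones. The Ptbp1 exon of 34 bases at chr10:79862014-79862047 is the one whose skipping shifts the frame and leads to decay. It was included in 73.1% and 77.7%. The Ptbp1 exon of 78 bases at chr10:79860117-79860194, in the linker between RNA-binding domains, was included in 41.2% and 37.7%. Most of the output with it was the retained-intron form Ptbp1-205 (20.33% and 16.76% of the gene's TPM). The coding form with it, Ptbp1-216, took 3.51% and 9.22%, so these percents do not give its inclusion in coding transcripts. Ptbp1-205 also holds the 34-base exon. The Mbnl1 exon of 54 bases at chr3:60614683-60614736 bears on nuclear localisation and was included in 74.6% and 61.3%. Of the forms with it, Mbnl1-216 took 16.27% and 4.23% of the gene's TPM on 40.35 and 17.35 counts. The retained-intron Mbnl1-206 took 11.54% and 2.94% on 23.3 and 9.79 counts. The other forms with the exon, Mbnl1-214, Mbnl1-215 and Mbnl1-218, took larger shares in replicate 2. The Hnrnpa2b1 exon of 36 bases at chr6:51467391-51467426 on the minus strand separates the B1 from the A2 protein. It was included in 30.5% and 28.7%. Hnrnpa2b1-203 alone holds it, a model of 4086 bases against 1647 and 1662 bases for those without it. These percents are thus the share of that whole model, and reads on the exon itself were not counted.
Ptbp1 34-base exon: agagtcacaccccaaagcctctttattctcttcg
Ptbp1 78-base exon: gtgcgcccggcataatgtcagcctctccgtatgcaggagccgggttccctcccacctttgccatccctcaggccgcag
Mbnl1 54-base exon: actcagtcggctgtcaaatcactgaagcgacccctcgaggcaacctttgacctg
Hnrnpa2b1 36-base exon: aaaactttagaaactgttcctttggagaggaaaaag

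The paralogs Hnrnpd and Hnrnpab each have an alternative exon that encodes part of the tyrosine- and glycine-rich tail. In Hnrnpd (chr5:99963731-99963877, minus strand, 147 bases) it was included in 58.3% and 57.6%, and in Hnrnpab (chr11:51601750-51601890, minus strand, 141 bases) in 50.5% and 54.2%. Both libraries thus gave an intermediate inclusion for both exons. For Hnrnpd the output with the exon held the decay transcripts Hnrnpd-204 (11.25% and 18.83% of the gene's TPM) and Hnrnpd-205 (2.48% and 1.27%). The coding forms with it were Hnrnpd-203 (23.85% and 14.47%) and Hnrnpd-211 (16.02% and 7.05%). Those without it were Hnrnpd-202 (34.55% and 25.39%) and Hnrnpd-201 (2.95% and 4.33%). The Hnrnpd percents therefore do not give its inclusion in coding transcripts. The 57-base exon of Hnrnpd near the start of the protein moved more, with 23.8% and 43.5%. The move rests on 1 short transcript of 493 bases, Hnrnpd-210, at 0% and 20.34% of the gene's TPM on 0 and 106.95 counts. Among the others with the exon, Hnrnpd-201 took 2.95% and 4.33%, and Hnrnpd-211 16.02% and 7.05%. The Rbfox2 exon of 40 bases was included in 59.1% and 63.4%, and the 36-base exon of Mbnl2 in 22.95% and 25.75%.
Hnrnpd 147-base exon: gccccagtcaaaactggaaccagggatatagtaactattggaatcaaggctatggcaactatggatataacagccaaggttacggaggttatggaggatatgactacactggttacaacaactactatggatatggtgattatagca
Hnrnpab 141-base exon: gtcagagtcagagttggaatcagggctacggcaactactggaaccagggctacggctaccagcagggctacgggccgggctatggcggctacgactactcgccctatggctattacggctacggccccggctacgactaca

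Among the kinases that phosphorylate SR proteins, 8 of 9 were detected. A nonproductive share could be given for 5, and 4 of them (Clk1, Clk2, Clk4 and Srpk1) reached 25%, against the 36.7% of protein-coding genes above. The highest by level were Clk1 (34.85 and 31.35 TPM), whose nonproductive share was 84.0% and 67.1%, Srpk1 (18.26 and 25.88 TPM, share 50.4% and 50.3%) and Clk4 (14.27 and 14.64 TPM, share 66.2% and 59.0%). Clk2, named after its values were seen, had a share of 71.4% and 67.5%, and Dyrk1a one of 3.53% and 3.73%. The lowest was Srpk3, a muscle kinase, at 0.29 and 0.27 TPM. None was 2-fold apart between the libraries.

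SR-related proteins and other regulators gave 7 of 12 and 15 of 20 genes at a nonproductive share of 25% or more, against 36.7% of protein-coding genes. The SR-related list was led by U2af2 (36.4 and 55.71 TPM), Srrm2 (44.35 and 44.97 TPM) and U2af1 (32.66 and 47.92 TPM), where U2af1 and U2af2 form the 3′ splice-site factor. Its lowest gene was the neuronal Srrm4 (0.07 and 0.06 TPM), 15 of 17 were detected, and Rnps1 (4.97 and 10.94 TPM) was 2-fold higher in replicate 2, 1 of 15 where 2.59% of protein-coding genes were. Among other splicing regulators 24 of 36 were detected, led by Rbm39 (77.12 and 96.06 TPM), Ewsr1 (80.25 and 91.81 TPM) and Tardbp (45 and 65.14 TPM). Pcbp2 (11.52 and 26.28 TPM) was 2-fold higher in replicate 2, 1 of 24, and Celf3 was lowest at 0.02 and 0 TPM.

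All 38 core genes were detected, led by the small ribonucleoprotein genes Snrpg (206.96 and 249.96 TPM), Snrpd2 (204 and 226.61 TPM) and Snrpe (85.2 and 133.3 TPM), with Prpf4 lowest (5.47 and 7.97 TPM). In this list 10 of 26 reached a nonproductive share of 25%, near the 36.7% of protein-coding genes. Snrpd1 (17.04 and 37.42 TPM) and Snrpb2 (6.97 and 15.78 TPM) were 2-fold higher in replicate 2, 2 of 38 against 2.59% of protein-coding genes. All 15 decay and exon junction factors were detected, led by Eif4a3 (63.06 and 92.28 TPM), Smg5 (43.6 and 38.95 TPM) and Magoh (22.09 and 44.28 TPM), with Magohb lowest (1.92 and 2.32 TPM). Of these 4 of 12 reached a share of 25%, also near 36.7%. None was 2-fold apart after 1 TPM was added to each value, with Magoh just under the limit at a log2 difference of 0.97.

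Some values rest on reads that could belong elsewhere. Fractional counts, which arise where reads are shared between genes, occurred for 13 regulators: Hnrnpa1, Hnrnpa3, Hnrnpc, Hnrnpf, Hnrnph2, Hnrnpk, Hnrnpm, Hnrnpr, Hnrnpu, Srsf10, Srsf3, Srsf5 and Tra2b. Exons of 18 regulators overlap another gene of the table, 16 of them one on the other strand, such as Mfsd11 and Mettl23 at Srsf2 and Nfatc3 at Esrp2. No source used here gives the strand setting of the counting, so reads of such pairs may not be told apart.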

How the data were processed

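Total RNA of ES-E14 cells was measured in 2 libraries of 1 group. Each library was aligned to mm10 and quantified against annotation M4, per the deposited text files. Aligner and quantifier: not given in the sources used here. What was deposited comprises, per the file headers, expected counts, TPM, FPKM and posterior mean TPM (used as the authors' signal values) per gene and transcript, and the percent of a gene's TPM in each transcript. TPM is relative to all rows of the table. Symbols, biotypes and exons came from GENCODE M21 on GRCm38; 317 of 318 transcripts of the regulators matched, 291 with the same length. The 884 genes not in M21 held 6.79% and 9.11% of counts.

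Detection was 1 TPM or more in both libraries. Differences used log2(TPM + 1), which understates those of low genes. Expected counts were rounded for TMM factors (edgeR 4.0.16) and DESeq2 1.42.0 size factors, in R 4.3.3. The remaining computation ran in Python 3.11.15 with pandas 2.3.3, numpy 2.4.6 and matplotlib 3.10.9, and the computations were tested on simulated data. Exon inclusion was counted where transcripts that span an exon held 20% or more of the gene's TPM. The rule named each regulator with its leading transcript by mean share and, at a nonproductive share of 25% or more, its leading nonproductive one. For 5 other lists it named the 3 highest genes, the lowest and those 2-fold apart. The regulators, lists and 4 marker lists were chosen with earlier results of these data known, and the exons shown and the transcripts named beyond the rule were chosen after their values were seen. Alternatives covered other units, scalings, limits, transcript classes and each library alone.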

Additional observations from a re-analysis of the deposited data

Results flagged for a closer look

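Outside the 44 regulators, the processed pseudogene Hnrnpa1l2-ps, whose symbol fits the hnRNP pattern, held 3.07 expected counts in replicate 1 and 3.17 in replicate 2, just above the 3 counts that a count of 0 allows. An Hnrnpd transcript that M21 does not list, and whose class is therefore unknown, held 1.68 and 11.19 expected counts. Both are signals outside the measurements described above.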

How the results depend on the processing

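No paired analysis was possible because the series has 1 group, and each replicate number occurs once. The median level was 43.4 as FPKM and 122 as TPM rescaled to the sum of nuclear protein-coding genes, and 19.4 to 30.5 TPM with either library alone; 35 to 43 regulators were detected under the alternatives and 41 to 42 with either library alone. The count of regulators 2-fold apart, 2 as reported, was 0 with TMM factors, 0 with DESeq2 size factors, 0 for rescaled TPM and 0 after the GC-decile medians were taken off, but 4 with a pseudocount of 0.1 TPM and 16 at a limit of 1.5-fold. At 1.5-fold with TMM factors, an alternative chosen after seeing the data, it was 4. The median nonproductive share, 30.7% as reported, was 13.2% on transcript counts, 0.19% for decay transcripts alone, 14.4% for retained introns alone, 24.5% with no level filter and, in another alternative so chosen, 40.8% among genes with a nonproductive transcript. It was 27.4% to 35.0% with either library alone. The count at 25% or more, 19 as reported and 19 to 19 with either library alone, was 3 for decay transcripts alone (4.12% of protein-coding genes), 12 for retained introns alone (19.9%) and 10 at a limit of 50% (13.3%). On transcript counts it was 13, against 19.2% of protein-coding genes. The median difference between libraries kept its sign under the alternatives, from 0.17 to 0.52. Depth limits Rbfox1, with 8 and 7 counts.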
